A study of Mus musculus with 2 samples.

Results

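Levels are described for 10 genes of the oxidative stress and metallothionein systems in dorsal root ganglion (DRG) sensory neuron preparations: Mt1, Mt2, Mt3, Hmox1, Nqo1, Gclc, Gclm, Slc7a11, Txnrd1 and Srxn1. They were taken by gene symbol, and every one was found, as 13 of the 35034 transcript rows and 10 of the 24411 genes of the tables. RNA-seq had been performed on 2 pooled libraries to characterize the neuronal preparations. One pool came from the DRG neuron preparations of 10 alum-injected mice, and the other from those of 10 alum + KLH-immunized mice. The study depleted B lymphocytes from the preparations, and its deconvolution of the RNA-seq placed non-neuronal cells in them beside a majority of neurons. The mice were male C57BL/6J (labelled C57BL/6), 6 to 8 weeks old, and received 50% alum intraperitoneally, either by itself or together with KLH (100 µg; keyhole limpet hemocyanin, a mollusc protein used as a model antigen), on day 0 and again on day 14. DRGs were taken on day 28. Every mouse had therefore received the adjuvant, and the title of the control calls it naïve with alum alone. No untreated library was analysed here. There is 1 library per group, so no difference below has a replicate check, none was tested, and the spread between mice is unknown.

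Cells meet oxidants and reactive metals with several linked systems. The transcription factor NRF2 is held for degradation by KEAP1 until oxidants or electrophiles modify that protein, after which NRF2 binds antioxidant response elements (AREs) and drives genes for glutathione synthesis, thioredoxin reduction, quinone reduction and heme breakdown. Metallothioneins are small cysteine-rich proteins that bind zinc, copper and cadmium, and Mt1 and Mt2 are driven by the zinc-sensing factor MTF1 at metal response elements (MREs). In sensory ganglia these systems operate in the neurons and in the satellite glia and Schwann cells around them, and Mt3 is known as the metallothionein most characteristic of neural tissue.

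The 3 metallothionein coding sequences are shown because all 3 metallothioneins were lower in the alum + KLH pool, and they show the cysteine codons that define the family. They were read from the GRCm38 genome and the GENCODE M21 annotation, on the plus strand of chromosome 8, with the coding exons joined. Mt1 spans chr8:94179311-94180193, Mt2 chr8:94172848-94173427 and Mt3 chr8:94152800-94154010 from start to stop codon. The capitals mark the cysteine codons.
Mt1: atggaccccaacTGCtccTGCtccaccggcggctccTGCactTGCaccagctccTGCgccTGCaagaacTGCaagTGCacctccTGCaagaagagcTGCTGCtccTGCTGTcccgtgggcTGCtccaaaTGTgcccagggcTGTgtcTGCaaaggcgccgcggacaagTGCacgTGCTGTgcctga
Mt2: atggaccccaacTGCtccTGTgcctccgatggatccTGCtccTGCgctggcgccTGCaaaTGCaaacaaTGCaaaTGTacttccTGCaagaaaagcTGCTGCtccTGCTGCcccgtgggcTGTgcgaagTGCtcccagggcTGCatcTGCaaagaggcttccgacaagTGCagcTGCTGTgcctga
Mt3: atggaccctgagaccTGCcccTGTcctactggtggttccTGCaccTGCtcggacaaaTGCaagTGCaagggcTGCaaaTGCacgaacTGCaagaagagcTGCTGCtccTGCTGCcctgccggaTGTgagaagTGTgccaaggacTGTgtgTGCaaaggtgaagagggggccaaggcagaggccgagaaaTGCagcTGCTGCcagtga
Mt1 and Mt2 each encode 61 residues, of which 20, or 32.8%, are cysteine. Mt3 encodes 68 residues with the same number of cysteines, 29.4% of the protein. The coding sequences of Mt1 and Mt2 are of equal length and carry the same base at 148 of 186 positions (79.6%). Their GC content was 63.4% for Mt1, 58.6% for Mt2 and 58.5% for Mt3. The whole genes, of 3 exons each, lie within 27.7 kb, with Mt3 at chr8:94152607-94154146, Mt2 at chr8:94172664-94173568 and Mt1 at chr8:94179082-94180327.

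Windows of 250 bases before the RefSeq gene start were searched on both strands for the MRE core, TGCACNC or TGCGCNC, and for the ARE core, TGACNNNGC. They came from the RefSeq table for GRCm38.p6, which held 10 windows for 8 of the 10 genes (not for Hmox1 or Gclc). The windows of Mt1 (chr8:94178839-94179088, plus strand) and Mt2 (chr8:94172368-94172617, plus strand) are shown because these neighbouring genes were the most abundant metallothioneins. The capitals mark the matches, read on either strand.
Mt1: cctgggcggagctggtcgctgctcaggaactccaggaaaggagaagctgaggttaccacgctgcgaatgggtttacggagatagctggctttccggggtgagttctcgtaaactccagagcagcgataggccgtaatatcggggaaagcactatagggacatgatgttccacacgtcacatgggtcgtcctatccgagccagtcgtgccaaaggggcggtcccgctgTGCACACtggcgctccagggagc
Mt2: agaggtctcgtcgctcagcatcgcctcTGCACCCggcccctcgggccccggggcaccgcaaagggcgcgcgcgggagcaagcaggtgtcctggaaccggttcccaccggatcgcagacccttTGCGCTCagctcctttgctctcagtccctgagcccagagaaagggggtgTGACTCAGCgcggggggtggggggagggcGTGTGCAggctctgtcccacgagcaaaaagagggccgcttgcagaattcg
The Mt2 window held 3 MRE matches, TGCACCC at -223 to -217, TGCGCTC at -128 to -122 and, on the minus strand, TGCACAC at -50 to -44, counted from the RefSeq start. It also held the ARE match TGACTCAGC at -79 to -71, whose first letters are the AP-1 motif TGACTCA. The Mt1 window held 1 MRE match, TGCACAC at -23 to -17, and no ARE match. No match to either core was found in the 250-base windows of Mt3, Nqo1 and Slc7a11, and sequence further upstream was not searched for any gene. Gclm, with 2 MRE matches, had the ARE match TGACGGTGC at -134 to -126 on the minus strand, which overlaps one of them. Txnrd1 had the ARE match TGACAAAGC at -92 to -84 on the minus strand of 1 of its 3 windows, and Srxn1 had 1 MRE match, TGCGCTC at -19 to -13. Of all 32851 windows in the table, 21.4% held at least 1 MRE match, 1.26% at least 3, and 10.2% at least 1 ARE match. The printed windows end 223 bases before the start codon of Mt1 and 231 bases before that of Mt2, and the sequence between was not searched. The Mt1 window runs past the GENCODE gene start of 94179082, while the Mt2 window stops before its gene start of 94172664. The windows are thus not placed alike, and the match counts of Mt1 and Mt2 are not compared. A match is a description of letters and not a binding site.

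Apart from Slc7a11, the genes were detected in both libraries by the threshold of 3 TPM (transcript abundance relative to the whole library) that the study used. Their levels spanned a wide range. Srxn1, Mt2, Gclm, Txnrd1 and Mt1 lay above 100 TPM in each pool, Gclc near them, Hmox1 and Nqo1 lower, and Mt3 just above the threshold. TPM is scaled by transcript length, so that levels of different genes can be set side by side within a library. Wherever a pair of levels is given, the first belongs to the alum-injected pool and the second to the alum + KLH pool. Srxn1 was highest in both pools, and the only changes of place between the pools were those of Mt2, at place 2 of 10 with alum alone and place 4 with alum + KLH, and of Gclm and Txnrd1, which moved ahead of it.

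**Figure D1:**
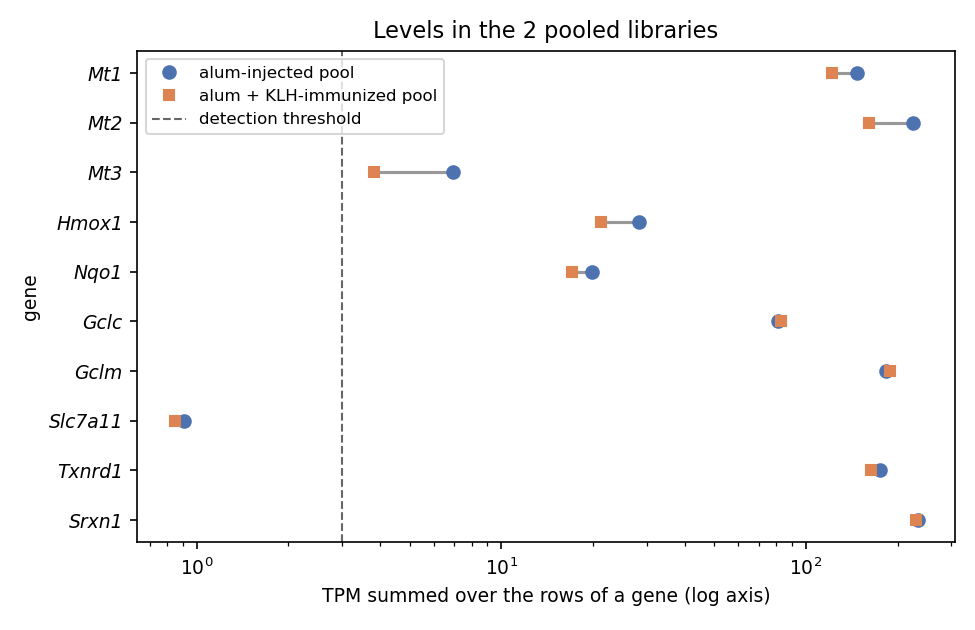
TPM of the 10 genes (log axis), summed over the transcript rows of a gene, in the alum-injected pool (circles) and the alum + KLH-immunized pool (squares), with 1 library each and so no error bars. The dashed line marks 3 TPM. The symbols lie apart for the 3 metallothioneins, Hmox1 and Nqo1, and nearly coincide for Gclc, Gclm and Srxn1.

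Differences between the pools are given as the log2 ratio of TPM + 1, alum + KLH over alum alone, which understates the difference of low genes. With no replicates, a gene was counted as lower when this ratio was -0.32 or below (TPM + 1 at least 20% lower with alum + KLH), as higher when it was 0.32 or above (at least 25% higher), and as 2-fold apart beyond 1 in either direction. Among 11648 genes above 3 TPM in at least 1 library, 5.39% were lower in the alum + KLH pool by this rule and 2.29% higher, while 0.944% were at least 2-fold lower and 0.695% at least 2-fold higher. The median ratio over these genes was -0.02, and 56.4% of them lay below 0. Of the 9 detected genes described here, 3 were at least 20% lower (33.3%), namely Mt2, Mt3 and Hmox1, none was 25% higher, and none was 2-fold apart. Relative to Hprt, the reference gene of the study's qPCR, Mt1 was at least 20% lower as well, making 4. The median ratio of the 9 genes was -0.21, with 7 below 0 and 2 above. It was -0.08 when each ratio was set against the genes nearest in GC content, and -0.13 against those nearest in GC content and length. In bulk samples, fewer cells of a type and less RNA per cell cannot be told apart.

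The metallothioneins, which buffer zinc and copper, were all lower in the alum + KLH pool, under every scaling tried. Mt1, one of the ubiquitous metallothioneins, was at 147 and 122 TPM, a log2 ratio of -0.27. Mt2, its co-regulated neighbour, was at 225 and 161 TPM, a log2 ratio of -0.47, and its TPM without the pseudocount was 28.2% lower. Mt3, the neural form, was at 6.92 and 3.81 TPM, a log2 ratio of -0.72, and its TPM without the pseudocount was 44.9% lower. Mt2 and Mt3 had the largest and the smallest of the metallothionein levels. The lowest log2 ratio was that of Mt3, the gene closest to the detection threshold. Between Mt1 and Mt2, the more abundant gene, Mt2, had the lower ratio. Among the 500 genes nearest in mean level, the middle 90% of log2 ratios ran from -0.20 to 0.16 around Mt2, from -0.43 to 0.27 around Mt3, and from -0.25 to 0.17 around Mt1. All 3 ratios lay below these intervals, Mt1 by the least. Within a library, Mt2 stood above Mt1 by 1.53 and 1.33 times, and Mt1 stood above Mt3 by 21.3 and 31.9 times. The remaining metallothionein, Mt4, was listed at 0 in both pools.

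Mt1 and Mt2 were each measured by a single row (NM_013602 and NM_008630), as was Mt3 (NM_013603), and no stretch of 31 bases was shared among them. Mt1 and Mt3 shared none with any other GENCODE gene. Of the 481 such stretches in Mt2, 270 (56.1%) occur in another gene, 267 of them in Gm45774, which has no row in the tables. The search took either orientation and did not record the strand of the shared stretches. The library kit keeps the strand, but the strand setting of the quantification is not given in the sources used here. The Mt2 value may thus hold reads of Gm45774.

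The metallothionein transcripts are short and rich in GC, and over all genes the ratio between the pools was lower at higher GC content. Where the GC content of the transcript was at most 40%, the median log2 ratio of 688 genes was 0.08, and 2.91% of them were at least 20% lower. Between 55 and 60%, where Mt1 (58.1%) and Mt2 (55.6%) lie, the median of 1671 genes was -0.16 and 15.4% were at least 20% lower. Above 60%, where Mt3 (62.3%) lies, the median of 228 genes was -0.21 and 33.8% were at least 20% lower. The 3 metallothioneins were also among 69 protein-coding genes of at most 700 nt and over 55% GC, whose median ratio was -0.27, with 40.6% at least 20% lower and 84.1% below 0. The ratio of Mt1 stood at that median, and those of Mt2 and Mt3 below it, Mt2 just above the lower quartile of -0.48 and Mt3 above the 5th percentile of -0.86. When each ratio was set against the median of the 500 genes nearest in GC content, the ratio of Mt1 was -0.08, that of Mt2 -0.34 and that of Mt3 -0.51. Mt2 and Mt3 thus remained at least 20% lower in this centring, which was chosen after seeing the data, and Mt1 lay close to its GC class.

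**Figure D2:**
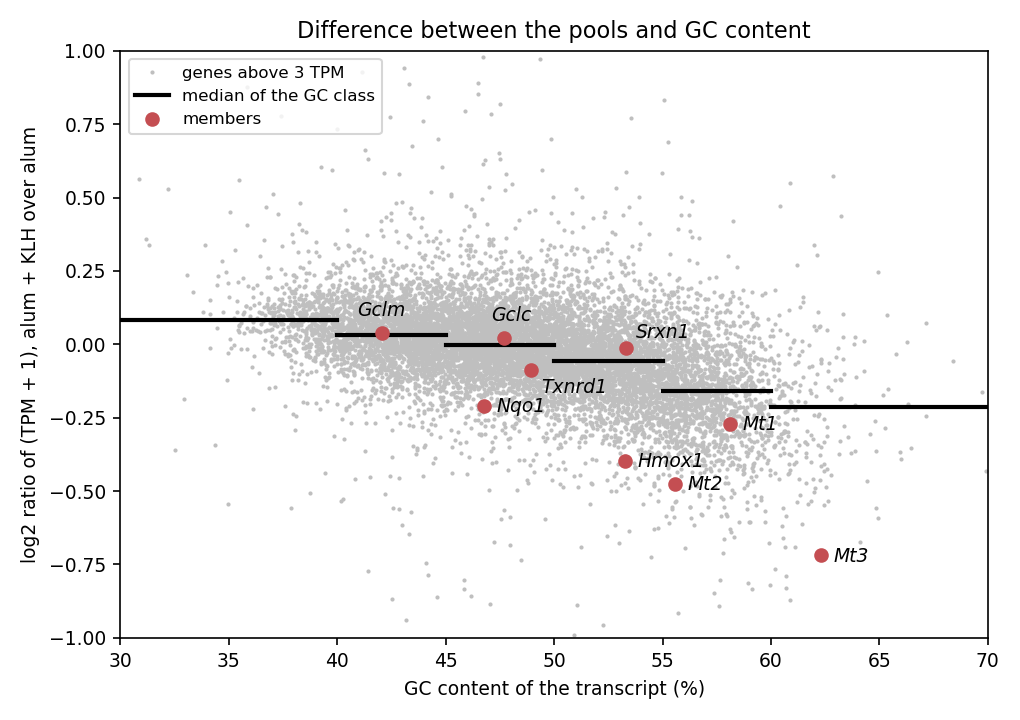
Each grey point is one of 11242 genes above 3 TPM, by the GC content of its transcript (x axis, %) and its log2 ratio between the pools (y axis), with 178 of 11420 genes outside the axes. Black lines are medians of GC classes, which step down from 0.08 to -0.21, and red points are the 9 detected genes, with Mt2, Mt3, Hmox1 and Nqo1 well below the line of their class.

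Hmox1 and Nqo1, the classical inducible enzymes of this system, were present at moderate levels and were lower in the alum + KLH pool under every setting tried. Hmox1, heme oxygenase 1, which breaks heme into biliverdin, carbon monoxide and iron, was at 28.3 and 21.2 TPM. The log2 ratio was -0.40, below the interval of -0.25 to 0.18 of the 500 genes nearest in level. Its GC content of 53.3% lies in a class of 2940 genes with a median ratio of -0.06, and set against the genes nearest in GC its ratio was -0.33. Set against the 500 genes nearest in both GC and length, its ratio was -0.31, short of 20% lower. The constitutive isoenzyme Hmox2 was far more abundant, at 132 and 120 TPM, so that Hmox1 amounted to 0.214 and 0.177 of Hmox2. Nqo1, which reduces quinones by 2 electrons and so avoids radical intermediates, was at 19.9 and 17.1 TPM. With a log2 ratio of -0.21 it lay within the interval of its neighbours, -0.31 to 0.17. At 46.7% GC it lies in a class whose median was near 0, and its GC-centred ratio was -0.22.

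Both subunits of the enzyme that starts glutathione synthesis differed by less than 3% between the pools. Gclc, the catalytic subunit of glutamate-cysteine ligase, the rate-limiting enzyme of glutathione synthesis, was at 81.2 and 82.6 TPM, which was 1.64% higher. Gclm, the modifier subunit of the same enzyme, was at 183 and 188 TPM, which was 2.72% higher. Both turn slightly lower relative to Hprt, with log2 ratios of -0.06 for Gclc and -0.05 for Gclm, and Gclm lay at 0.00 in both centrings that use GC. The transcript of the modifier subunit exceeded that of the catalytic subunit by 2.26 times in one pool and 2.28 times in the other. Slc7a11, the cystine-carrying subunit of the cystine/glutamate exchanger, which supplies cysteine for this pathway, was at 0.909 and 0.846 TPM, below the detection threshold in both pools. No difference is read from values this low.

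The thioredoxin genes of the set were among the most abundant and were nearly level. Srxn1, sulfiredoxin, which restores peroxiredoxins that have been over-oxidized by peroxide, was at 233 and 231 TPM. The log2 ratio of -0.01 turned to 0.01 when the libraries were rescaled to their median ratio. Srxn1 was exceeded by 3.74% of all genes with alum alone and by 3.77% with alum + KLH. Txnrd1, the cytosolic thioredoxin reductase, a selenoprotein that uses NADPH to recycle thioredoxin, was at 175 and 164 TPM, a log2 ratio of -0.09. Both ratios lay well within the intervals of their neighbours, which ran from -0.18 to 0.17 for Srxn1 and from -0.21 to 0.18 for Txnrd1. The mitochondrial enzyme Txnrd2 was at 2.60 and 2.03 TPM, below the detection threshold in both pools.

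Txnrd1 alone of the 10 genes had more than 1 row. The transcript NM_015762 held 94.6% and 96.2% of the Txnrd1 total. The row NM_001042513 was at 8.09 and 5.13 TPM, NM_001042523 at 1.42 and 0.490 TPM, and NM_001042514 was listed at 0 in the alum-injected pool and at 0.588 TPM in the other. These rows differ in little sequence. Only 1.32% of the 31-base stretches of NM_001042513 and 1.76% of those of NM_015762 are absent from the other 3 rows, so the division of reads among them rests on few positions, and only the gene total is read here.

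Of the alternatives, 7 can move the ratio of a gene by themselves: both other pseudocounts, both scalings and the 3 centrings. Mt2 and Mt3 were at least 20% lower in 7 of 7, with log2 ratios from -0.56 to -0.34 for Mt2 and from -0.84 to -0.51 for Mt3, and Hmox1 in 6 of 7, from -0.48 to -0.31. Mt1, Nqo1 and Txnrd1 were below 0 in all 7, but Mt1 was at least 20% lower in 1 of them and Nqo1 and Txnrd1 in none, with ranges of -0.36 to -0.08 for Mt1, -0.29 to -0.18 for Nqo1 and -0.17 to -0.07 for Txnrd1. Gclc, Gclm and Srxn1 crossed 0 with the setting, within -0.10 to 0.06. Slc7a11, which was not centred, was not read for its low level. All of these settings use the same pair of libraries.

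**Figure D3:**
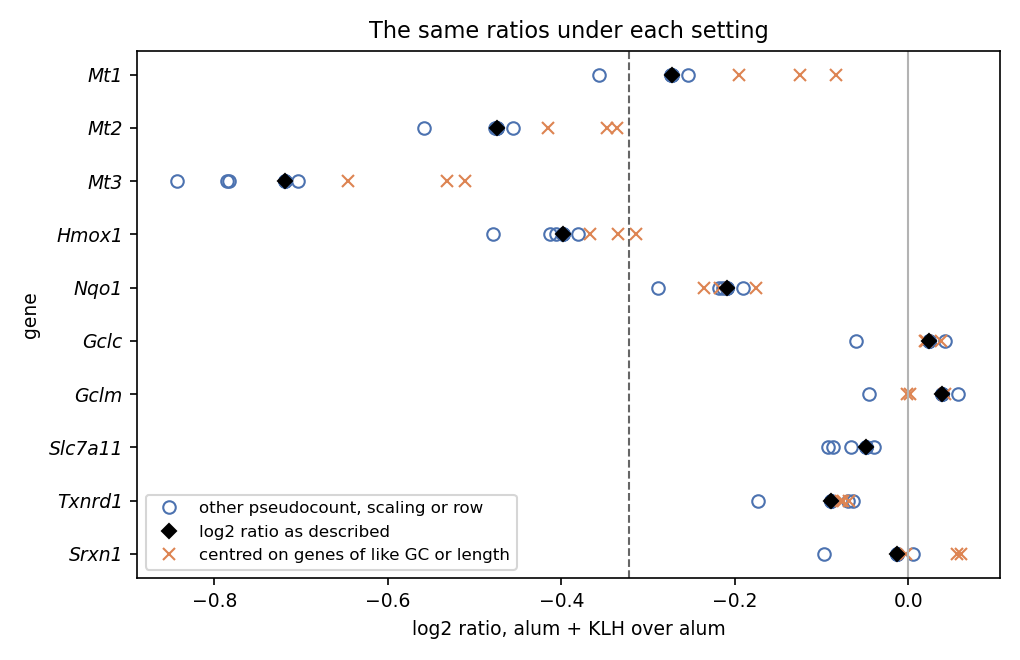
Log2 ratio (x axis) of each gene (y axis) as described (diamonds), under other pseudocounts, scalings or the highest row (open circles), and centred on genes of like GC content or length (crosses). The dashed line marks -0.32, or 20% lower. Mt2 and Mt3 stay left of it in every setting shown, Hmox1 in all but 1, and Slc7a11, below 3 TPM, was not centred.

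The rest of the pathway was read from 7 lists of 84 other genes, of which 75 were above 3 TPM in at least 1 pool. Of these, 2 were at least 20% lower (2.67%), none was at least 25% higher, none was 2-fold apart, and the median ratio was -0.08, with 48 below 0 and 27 above. This share was below the 5.39% of all genes, but the order turned round relative to Hprt, where it was 14.7% (11 of 75) against 9.46% (1102 of 11648). The 2 genes, named after their values were seen, were Gpx1, glutathione peroxidase 1, at 36.7 and 25.5 TPM, and Atox1, a copper chaperone, at 12.8 and 8.46 TPM. Like the metallothioneins they are rich in GC, at 57.2% for Gpx1 and 59.3% for Atox1. The part of GC content in these differences was not tested.

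Of the genes that control NRF2, all 10 were above the threshold and none passed either limit, with a median ratio of -0.08. The most abundant were Sqstm1, an autophagy receptor that competes for KEAP1, at 423 and 369 TPM, and the ubiquitin ligase components Cul3, at 384 and 390 TPM, and Rbx1, at 246 and 242 TPM. The transcript of NRF2 itself, Nfe2l2, named after its values were seen, was at 118 and 113 TPM, and that of its inhibitor Keap1 at 11.6 and 10.7 TPM. NRF2 is regulated mainly as a protein, which these data do not measure.

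Of 20 other glutathione genes, 18 were above the threshold, with a median ratio of -0.14, which moved to -0.04 when centred on GC, and Gpx1 was the only one past either limit. The most abundant were Gstm5, a glutathione transferase, at 176 and 182 TPM, Chac2, a glutathione-degrading enzyme, at 106 and 117 TPM, and Gsr, glutathione reductase, at 96.7 and 93.9 TPM. Of 16 thioredoxin and peroxiredoxin genes, 14 were above the threshold and none passed either limit, with a median of -0.09. Txn1, thioredoxin itself, was at 1584 and 1306 TPM, a log2 ratio of -0.28, while the peroxiredoxins Prdx1, at 626 and 630 TPM, and Prdx3, at 224 and 237 TPM, were close to level. Among the genes that remove superoxide and peroxide, 4 of 6 were above the threshold and none passed either limit. Sod1, the cytosolic superoxide dismutase, was at 432 and 405 TPM, Cat, catalase, at 206 and 182 TPM, and the mitochondrial Sod2 at 184 and 199 TPM.

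The 6 genes that supply NADPH to these reductases were all above the threshold and none passed either limit. Their median ratio of -0.21 moved to -0.12 when centred on GC. Idh1, the cytosolic isocitrate dehydrogenase, was at 384 and 376 TPM, Me1, malic enzyme, at 223 TPM in both pools, and Taldo1, of the pentose phosphate pathway, at 46.2 and 39.7 TPM. The 10 genes of heme breakdown and iron were above the threshold in at least 1 pool and none passed either limit. Fth1, the ferritin heavy chain, was at 1471 and 1318 TPM, Tfrc, the transferrin receptor, at 279 and 270 TPM, and Ireb2 at 126 and 130 TPM. Of 16 genes of zinc and copper handling, 13 were above the threshold, with a median of 0.03 that became -0.05 relative to Hprt, and Atox1 was the only one past either limit. The zinc carriers Slc30a9, at 336 and 358 TPM, and Slc39a6, at 157 and 160 TPM, and the copper importer Slc31a1, at 89.6 and 90.05 TPM, led this list. Mtf1, the zinc sensor that drives Mt1 and Mt2, named after its values were seen, was at 5.77 and 6.09 TPM, and its other target Slc30a1, a zinc exporter, at 25.6 and 25.1 TPM. Whether these genes share reads with near-identical copies elsewhere was not examined.

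**Figure D4:**
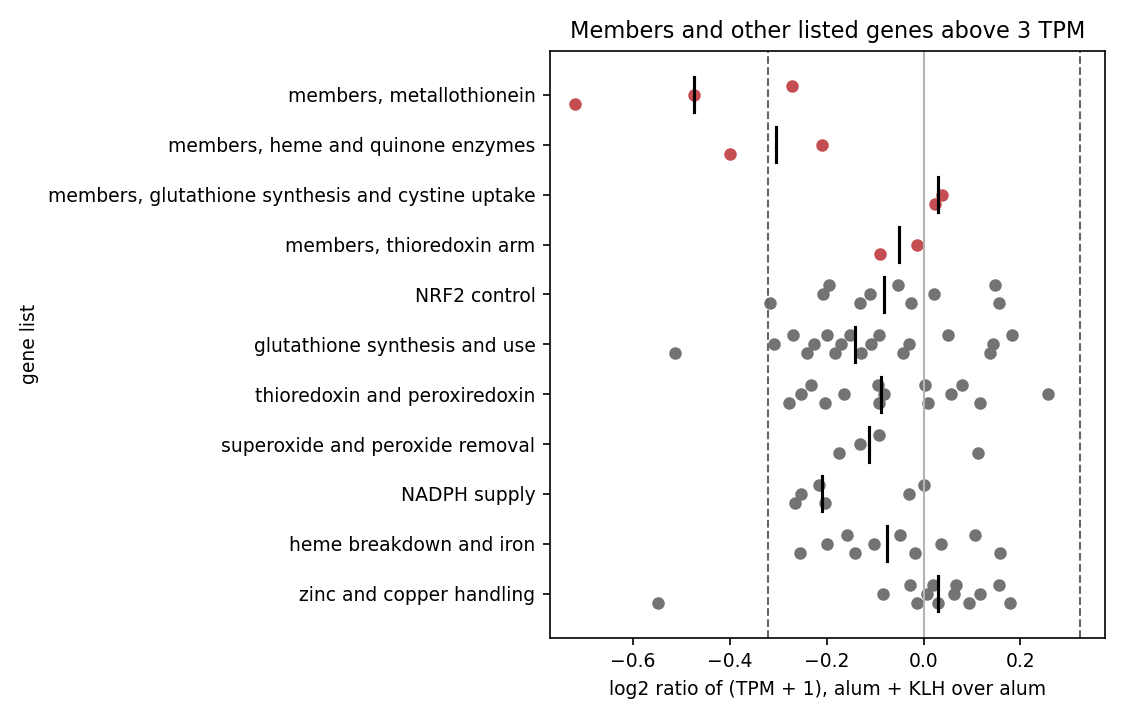
Log2 ratio between the pools (x axis) for each detected gene of the set (red) and of the 7 other pathway lists (grey), with the median of each list as a vertical bar and dashed lines at 0.32 in either direction. The red points reach from -0.72 for Mt3 to 0.04 for Gclm, while of 75 grey points only Gpx1 and Atox1 lie left of the lower line.

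Markers of the cell types in the preparations are given beside these values, since metallothioneins and Hmox1 are also expressed by glia, macrophages and vessels. All 11 pan-neuronal markers were above the threshold, led by Nefl, with summed levels of 17935 and 17664 TPM. Among these markers, 9 had ratios below 0 and 2 above, with a median of -0.07. Rbfox3, which encodes NeuN and is named after its values were seen, was the only one of them at least 20% lower, at 60.8 and 44.6 TPM. The GC content of Rbfox3 is 56.7%. Of 8 satellite glia markers, led by Fabp7, 7 were above the threshold and all 7 had ratios below 0 (4 of 7 once the libraries were rescaled to their median ratio), with a median of -0.04 and sums of 1892 and 1767 TPM. Apoe, a lipid carrier of glia and macrophages named after its values were seen, was the only one of them past either limit, at 132 and 91.5 TPM, and its GC content is 59.5%. When centred on GC, none of the 7 was at least 20% lower. Schwann cell markers, led by Pmp22, summed to 1932 and 1900 TPM, and of the 8 above the threshold 4 had ratios below 0. Macrophage markers were near 0, with 1 of 14 above the threshold (Lyz2, at 3.90 and 3.86 TPM) and sums of 12.9 and 12.6 TPM. Endothelial markers, led by Egfl7, summed to 17.9 and 14.1 TPM, and fibroblast markers, led by Dcn, to 88.1 and 88.5 TPM. Of those above the threshold, 2 of 2 endothelial and 2 of 3 fibroblast markers had ratios below 0. Erythrocyte markers, led by Hba-a1, summed to 5.60 and 1.95 TPM, and B lymphocyte markers, with none of 7 above the threshold, to 1.55 and 0.999 TPM. The part of glial, vascular or other cell content in the differences of Mt1, Mt2, Mt3 and Hmox1 was not tested.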

How the data were processed

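The authors prepared stranded mRNA libraries from the DRG neurons of each pool, trimmed adapters and low-quality bases from the paired-end reads with cutadapt, and ran kallisto on annotated mouse transcripts (mm10) without searching for others. Versions and the strand setting are not given in the sources used here. Each deposited row gives the TPM of a RefSeq transcript, scaled by the authors so that a library sums to 1000000. TPM keeps no read count, so depth per value is unknown and no interval or floor was computed. In the alum-injected and alum + KLH pools, 11454 and 11302 genes were above 3 TPM.

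Rows were summed per gene symbol. With 1 library per group, no test was made. Log2 ratios used a pseudocount of 1 TPM and were set beside all genes above 3 TPM in at least 1 library and the 500 genes nearest in mean log2(TPM + 1). Lengths and GC content were those of the transcripts in GENCODE M21 (GRCm38), found for 11420 of 11648 genes (98.0%). The calculation was tested on simulated data in Python 3.11.15 with numpy 2.4.6 and pandas 2.3.3. The 10 genes and the lists were chosen with earlier results of these data known. All 10 genes were named, with the 3 most abundant genes of each other list and any at least 2-fold apart. Cell type markers were given as sums with their most abundant gene. The alternatives were pseudocounts of 0.1 and 0.5 TPM, rescaling by the median ratio (0.987), TPM relative to Hprt, the highest row of each gene, no filter or a filter at 10 TPM, and centring on genes of like GC content or length.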

Additional observations from a re-analysis of the deposited data

How the results depend on the processing

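No paired analysis was possible because each group has 1 library, and for the same reason no library could be left out. Among the 10 genes, the count at least 20% lower was 3 as described, 4 relative to Hprt, 2 when centred on GC and length, where Hmox1 fell short, and 2 above 10 TPM, where Mt3 was not counted, and none was at least 25% higher in any setting. Relative to Hprt, which was 1.06 times as high in the alum + KLH pool, the median ratio of all genes moved from -0.02 to -0.10, the other pathway genes at least 20% lower went from 2 to 11, and all genes went from 628 lower and 267 higher to 1102 lower and 191 higher. With no filter, 1059 genes were lower and 530 higher, counts that include many genes near 0 TPM. Above 10 TPM, 291 were lower and 110 higher, and at 2-fold 49 were lower and 25 higher in place of 110 and 81, with fewer genes counted. Centring, chosen after seeing the data, gave 309 lower and 296 higher for GC content, and 311 and 287 for GC and length. With the highest row of each gene, 1 other pathway gene was at least 25% higher in place of 0. The cause of these shifts was not tested, and the filters change which genes are counted. The other pathway median stayed between -0.17 and -0.03. The share of genes above a given level depends on the genes counted: 3.86% of all genes, but 8.10% of those above 3 TPM, were higher than Mt2 in the alum-injected pool.

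With 1 pooled library per group, the spread between pools is unknown, and no difference is set against it. TPM gives no depth, so the precision of low values such as Mt3 is unknown.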
